A study of Mus musculus with 3 samples.

Results

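Plasmacytoid dendritic cells are rare leukocytes that detect viral nucleic acids with endosomal Toll-like receptors and can secrete large amounts of type I interferon. They were sought here among viable CD45+ cells (CD45 is the common leukocyte surface protein) sorted from the livers of newborn mice. A cell barcode was taken as a plasmacytoid dendritic cell when it held at least 2 UMIs (unique molecular identifiers, each standing for 1 captured molecule) of Siglech and at least 2 UMIs each of at least 2 further genes among Ccr9, Cox6a2, Pacsin1, Tcf4, Runx2, Cd300c and Klk1. The rule took 204 of 25845 barcodes. The mice were at postnatal day 0 and were wild type (pex2+/+), heterozygous (pex2-/+) or null (pex2-/-) for Pex2, whose product lets peroxisomes import their enzymes and whose loss models severe Zellweger disease. Livers were strained, hepatocytes were spun out and red cells lysed before the sort, and the cells were fixed and read with gene-specific probes. Each genotype had a single library, and how many animals went into it is unknown here. No difference below could therefore be tested, and each carries an interval for counting error alone. Because the null allele is present in every cell of the animal, effects within these cells and effects of their surroundings cannot be told apart.

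Development and survival of plasmacytoid dendritic cells depend on the E protein TCF4, which acts with IRF8, SPIB, RUNX2 and BCL11A and against ID2, the inhibitor of E proteins that conventional dendritic cells use. Fetal and newborn liver is a site of blood formation, and dividing precursors as well as mature cells can be present there. Peroxisomes shorten very long chain fatty acids and make ether lipid precursors, and lack of them is known to disturb lipid balance in many tissues.

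Of the 204 barcodes, 100 came from the library labelled WT, 69 from the library labelled Het and 35 from the KO library, and values below are given in that order. Pex2 went against the first 2 labels. Pex2 (GRCm38, chromosome 3, 5560188 to 5576239, minus strand, GENCODE M21) gave these cells 23, 89 and 0 UMIs, or 17.7, 59.8 and 0 CPM (a gene's UMIs per 1000000 UMIs of the group), so the library labelled Het had 3.39-fold more than that labelled WT. All other barcodes of the same libraries gave 23.7, 53.2 and 0.0108 CPM. The KO label fits these values, and the other libraries are called by their labels throughout. The library labelled WT also held Y-linked transcripts, with Ddx3y at 139, 0 and 0 CPM in these cells, so sex and genotype cannot be told apart in comparisons with it. No full barcode was shared between libraries, although 1147, 1184 and 961 of the droplet parts of barcodes were shared between pairs of libraries, and 1 pair of plasmacytoid dendritic cells, from the libraries labelled WT and KO, shared one.

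The E-box CAGGTG, a hexamer bound by E proteins such as TCF4, was looked for on both strands in the 250 bases before the RefSeq start of the 8 genes of the rule, because TCF4 is itself one of them. Promoters of 6 of the 8 had an entry in the RefSeq table (GRCm38.p6), and 4 of those held it, against 17.2% of all 32851 promoters of that length. They are printed 5′ to 3′ on the gene's strand with the hexamer, or its reverse complement CACCTG, in capitals.
Siglech, plus strand, chr7:55767934-55768183: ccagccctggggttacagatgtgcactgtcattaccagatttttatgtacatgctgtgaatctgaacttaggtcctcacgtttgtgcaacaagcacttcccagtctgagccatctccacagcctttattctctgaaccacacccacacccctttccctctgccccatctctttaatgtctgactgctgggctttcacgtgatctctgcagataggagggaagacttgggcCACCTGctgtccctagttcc
Ccr9, plus strand, chr9:123766961-123767210: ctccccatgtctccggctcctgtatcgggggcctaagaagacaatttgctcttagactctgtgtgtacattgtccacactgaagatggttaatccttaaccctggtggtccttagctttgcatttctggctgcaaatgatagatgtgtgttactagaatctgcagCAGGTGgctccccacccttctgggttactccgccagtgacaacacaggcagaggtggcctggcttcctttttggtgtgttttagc
Cd300c, minus strand, chr11:114960508-114960757: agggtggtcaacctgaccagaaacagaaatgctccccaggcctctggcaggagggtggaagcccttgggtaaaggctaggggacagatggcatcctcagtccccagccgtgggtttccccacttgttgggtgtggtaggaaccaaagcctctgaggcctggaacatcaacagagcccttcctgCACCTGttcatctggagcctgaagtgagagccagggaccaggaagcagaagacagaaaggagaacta
Klk1, plus strand, chr7:44225110-44225359: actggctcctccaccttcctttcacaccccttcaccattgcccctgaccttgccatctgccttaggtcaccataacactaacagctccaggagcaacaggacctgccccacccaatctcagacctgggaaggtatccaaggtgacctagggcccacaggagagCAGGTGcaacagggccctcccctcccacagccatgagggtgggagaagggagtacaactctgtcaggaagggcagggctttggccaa
In Siglech the hexamer began 20 bases before the start, and in Cd300c, Ccr9 and Klk1 it began 67, 85 and 87 bases before it. The windows of Pacsin1 and Runx2 did not hold these letters, and Cox6a2 and Tcf4 were not looked at. A match describes the letters and is not evidence of binding.

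The label was checked against genes the rule did not use. Bst2, an interferon-induced surface protein that mouse plasmacytoid dendritic cells carry at rest, stood at 2649, 1681 and 1578 CPM, against 47.5, 60.2 and 20.3 CPM in all other barcodes. Irf8 stood at 5065, 2901 and 3476 CPM against 201, 115 and 112 CPM. Ly6d, a marker of the lymphoid route into the lineage, stood at 1238, 648 and 715 CPM against 45.9, 21.6 and 12.5 CPM. Outside the rule, the genes with the highest ratio over other barcodes, taken in the library where the ratio was lowest, were Ddr1, a collagen receptor, Cd7, an immunoglobulin-family receptor, Kmo, an enzyme of tryptophan breakdown, Ptprf, a receptor phosphatase, and Mycl, a MYC family factor. Ddr1 reached 184, 127 and 126 CPM against 0.493, 0.273 and 0.124 CPM elsewhere. Kmo reached 416, 353 and 315 CPM against 4.97, 3.92 and 1.83 CPM. Conventional dendritic cells of type 1 (35, 49 and 14 barcodes) and B lineage barcodes (1932, 1332 and 904) were gated on their own markers. Both gates also required fewer than 2 UMIs of Siglech. Their low Siglech, at 0, 1.91 and 0 CPM and at 1.58, 1.16 and 1.31 CPM, was therefore set by the gates. The conventional dendritic cells had no Cox6a2. B lineage barcodes shared Spib, at 1929, 1445 and 1484 CPM, against 1022, 561 and 440 CPM in the plasmacytoid dendritic cells. Because the cells were chosen by expression, these values are a description.

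Some chosen barcodes were not typical. Siglech ran from 107 to 6318 CPM per cell in the library labelled WT (median 1987), from 47.3 to 7477 in that labelled Het (1679) and from 32.1 to 8017 in KO (2272). Cells with exactly 2 further genes numbered 18, 25 and 9. They held less Siglech (781, 451 and 250 CPM) and less Bst2 (645, 562 and 269 CPM) than the 82, 44 and 26 cells with 3 or more, which held 2296, 2218 and 2690 CPM of Siglech and 3327, 2564 and 2597 CPM of Bst2. They held more Mpo, the myeloperoxidase of granulocyte and monocyte precursors, at 930, 1688 and 3211 CPM against 554, 602 and 116 CPM, and more Id2, at 429, 1998 and 1009 CPM against 126, 380 and 130 CPM. Of them 6, 19 and 7 held at least 20 UMIs of Mpo, Cd34, Id2 or of H2-Aa, H2-Ab1, H2-Eb1 and Cd74 together. Of the cells with 3 or more, 10, 10 and 3 did. Cells with exactly 2 further genes gave 328864, 656210 and 275575 of the 1301781, 1487416 and 629451 UMIs of all chosen cells. CPM values over all chosen cells include them. Just outside the rule lay 10, 15 and 7 barcodes with 2 or more UMIs of Siglech and fewer than 2 further genes, and 9, 6 and 8 with 1 UMI of Siglech and at least 2 further genes. Neutrophil-lineage transcripts were the other departure. A list of 12 such genes made up more than 2% of UMIs in 15, 6 and 0 cells, with a highest cell of 17.5%, 21.9% and 1.14%.

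A stricter subset, chosen after the data were seen, kept cells with at least 3 further genes and at most 2% of UMIs from the neutrophil list, and it held 72, 41 and 26 cells. Results in it are given beside those they differ from or, for gene lists, together after the lists. Scrublet, a doublet caller, marked 0, 1 and 0 of the chosen barcodes. Their median depth was 10740, 18090 and 14893 UMIs, where whole libraries had 8218.5, 15558.5 and 19348.

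The cells made up a smaller share of the KO library than of either other library. In the library labelled WT they took 1.04% of barcodes, with a 95% exact binomial (Clopper-Pearson) interval of 0.848 to 1.27. Labelled Het had 0.862%, with an interval of 0.672 to 1.09, and KO 0.424%, with an interval of 0.296 to 0.590. Divided by the share in labelled WT, the KO share was 0.408 (exact conditional interval 0.269 to 0.604), and divided by that in labelled Het it was 0.492 (0.318 to 0.750). Labelled Het over labelled WT gave 0.828, and its interval, 0.60 to 1.14, included 1. That interval excluded 1 with 3 further genes required (0.644, 0.436 to 0.940), with barcodes thinned to 5000 UMIs (0.627, 0.429 to 0.909) or 3000 UMIs (0.592, 0.409 to 0.847), and with 3 further genes after thinning to 5000 UMIs (0.545, 0.335 to 0.869), so labelled Het also lay below labelled WT under those 4 choices. Thinning every barcode to 5000 UMIs evens out depth but drops barcodes with fewer, which numbered 2109, 746 and 758. The counts were then 79, 48 and 26 of 7491, 7254 and 7487 barcodes, and KO came to 0.329 of labelled WT and 0.525 of labelled Het. By the stricter subset KO came to 0.420 of labelled WT (0.258 to 0.667) and 0.615 of labelled Het, and the latter interval, 0.361 to 1.03, included 1. Shares are of CD45+ barcodes, so fewer of these cells and more of other leukocytes cannot be told apart.

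**Figure D1:**
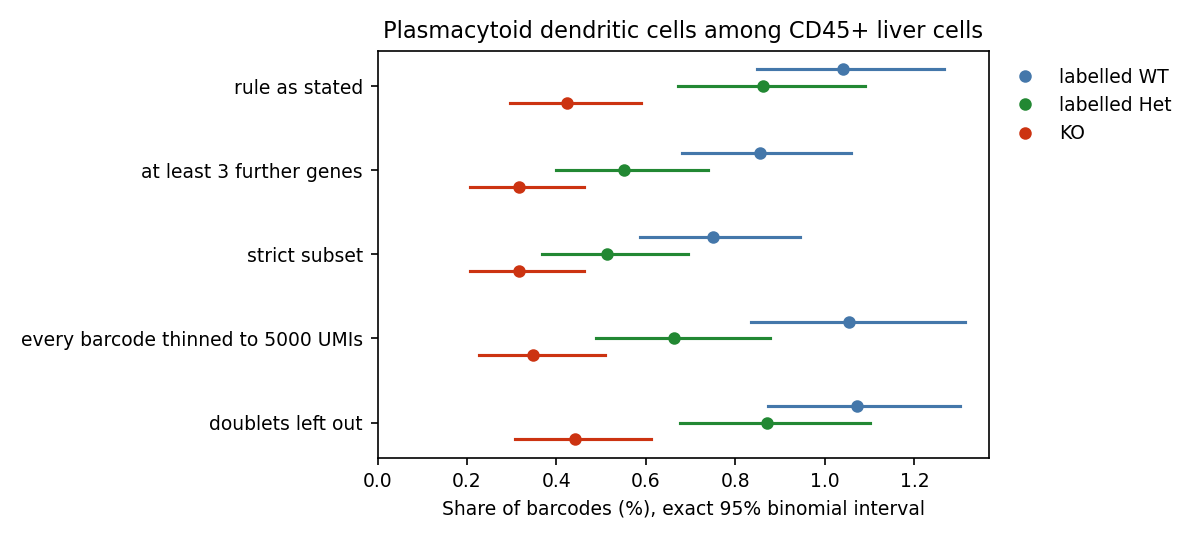
Share of barcodes taken as plasmacytoid dendritic cells in each library (x axis, percent; lines are exact 95% binomial intervals) under the rule and 4 other choices (rows). KO lies lowest in each row, at 0.424% under the rule, and its interval overlaps that of labelled Het in the rows for 3 further genes, the stricter subset and thinning.

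Levels of the genes of the rule are a description only, since a cell that lacked them could not be chosen. Siglech, the sialic acid-binding lectin (chromosome 7, 55768178 to 55778925, plus strand), stood at 1914, 1439 and 1622 CPM. Tcf4 stood at 950, 613 and 823 CPM and Runx2, which guides their exit from bone marrow, at 2067, 1025 and 1282 CPM. Ccr9, a gut-homing chemokine receptor, stood at 187, 101 and 205 CPM, Pacsin1, an endocytic adaptor, at 173, 118 and 132 CPM, and Cd300c, an activating receptor, at 120, 64.5 and 102 CPM. In each of these KO lay between the other libraries or, for Ccr9, above both. Where KO lay between, the fold between the other libraries was by necessity the larger. Klk1, a kallikrein protease, was lowest in KO at 147, 131 and 89.0 CPM.

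Of the genes of the rule only Cox6a2 met the fold rule given below, and only at the limit of 20 CPM used for gene lists. Its mean lay under the other limit, 100 CPM. That is 1 of 8 genes (12.5%), where 8.05% of all genes were lower. Cox6a2 encodes the muscle form of a cytochrome c oxidase subunit, which plasmacytoid dendritic cells also use. The gene lies on chromosome 7 from 128205435 to 128206387 on the minus strand. It stood at 141 CPM (95% Poisson interval 122 to 163), 80.0 CPM (66.3 to 95.7) and 15.9 CPM (7.62 to 29.2), from 184, 119 and 10 UMIs. The ratio of KO to labelled WT was 0.112 (0.0530 to 0.211) and to labelled Het 0.199 (0.0928 to 0.378). A Cox6a2 UMI was found in 56, 37 and 9 cells, and in 29.6%, 13.2% and 11.8% of cells thinned to 3000 UMIs, where other barcodes gave 0.985%, 1.11% and 0.254%. Its levels in the stricter subset were 196, 147 and 28.3 CPM. The ubiquitous form Cox6a1 stood at 198, 192 and 175 CPM. Of the 13 nuclear cytochrome c oxidase genes measured Cox6a2 alone was lower in KO over all chosen cells, or 7.69%, near the share over all genes. The list medians were 0.22 and 0.13 (log2). The stricter subset had 2 of 13 lower, and its medians lay on the other side of 0, at -0.31 and -0.18. Without Cox6a2 in the rule the same numbers of cells, 100, 69 and 35, were chosen.

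Genes were called by size. A call needed KO to lie at least 1.5-fold above, or below, both other libraries with both intervals excluding 1, in genes with a mean of at least 100 CPM and 50 UMIs. Of 2843 such genes 188 (6.61%) were higher in KO and 224 (7.88%) lower. The same rule turned on the library labelled Het called 29 genes higher (1.02%) and 24 lower (0.844%), and turned on the library labelled WT 82 higher (2.88%) and 169 lower (5.94%). So KO stood out in more genes than either other library, and labelled WT stood out in more than labelled Het. The sums rest on 100, 69 and 35 cells, and intervals on summed UMIs do not cover differences between cells. The part of cell number in these counts was not tested. The stricter subset had 242 of 2844 genes (8.51%) higher and 317 (11.1%) lower. Gene lists below used genes of at least 20 CPM, for which the same rule called 606 of 7974 genes higher (7.60%) and 642 lower (8.05%), and 580 of 7858 (7.38%) and 697 (8.87%) in the stricter subset. In other barcodes it called 178 of 6835 genes higher (2.60%) and 739 lower (10.8%). Over the 7974 genes in all chosen cells the median log2 ratio was 0.09 for KO over labelled WT and 0.04 for KO over labelled Het. Over the 6835 genes in other barcodes the medians were -0.10 and -0.13.

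Genes of cell division were lower in the KO cells. Of 23 genes of mitosis 17 were lower and 0 higher, with a median log2 ratio of -1.29 to labelled WT and -1.11 to labelled Het. Top2a, the topoisomerase that untangles chromosomes, stood at 607, 528 and 167 CPM. Plk1, a mitotic kinase, stood at 124, 106 and 35.0 CPM, and Aurkb, the kinase of chromosome alignment, at 170, 110 and 42.9 CPM. Mki67 stood at 353, 465 and 253 CPM and was called in the stricter subset only. In all other barcodes of the same libraries 0 of 23 were called, and the medians were 0.15 and -0.06.

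Of 22 genes of S phase, when DNA is copied, 10 were lower in KO, with medians of -0.67 and -0.63. Uhrf1, which keeps DNA methylation through replication, stood at 502, 433 and 148 CPM and Ung, a uracil-removing repair enzyme, at 120, 128 and 35.0 CPM. Pcna, the replication clamp, stood at 534, 512 and 318 CPM. Mcm2 and Mcm4, parts of the replicative helicase, stood at 211, 286 and 253 CPM and 179, 258 and 180 CPM and were not called. Other barcodes had 3 of 22 genes lower, near the share over all genes there. Ccnd1, cyclin D1, which drives entry into the cycle (chromosome 7, 144929931 to 144939925, minus strand), was among the 10 largest calls downward, at 287 CPM (259 to 318), 280 CPM (254 to 309) and 39.7 CPM (25.7 to 58.6). KO over labelled WT was 0.138 (0.0883 to 0.207) and KO over labelled Het 0.142 (0.0906 to 0.212), and a Ccnd1 UMI was found in 73, 61 and 7 cells. Outside these cells Ccnd1 was low in all libraries, at 7.97, 11.99 and 1.22 CPM, and there too it was lowest in KO by a wide margin. The lower Ccnd1 of KO was therefore not particular to these cells.

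Counted per cell, 34 of 100, 26 of 69 and 7 of 35 cells held at least 20 UMIs of the mitosis list, or 34% (24.8 to 44.2), 37.7% (26.3 to 50.2) and 20% (8.44 to 36.9), and these intervals overlap. With cells thinned to 3000 UMIs (2, 1 and 1 cells had fewer and were dropped), 41.8%, 44.1% and 23.5% of cells held at least 3 such UMIs (60%, 71.0% and 40% without thinning), against 41.2%, 47.1% and 49.5% of other barcodes. Of cells with exactly 2 further genes 10 of 18, 14 of 25 and 5 of 9 reached 20 UMIs, or 55.6% (30.8 to 78.5), 56% (34.9 to 75.6) and 55.6% (21.2 to 86.3). Of cells with 3 or more, 24 of 82, 12 of 44 and 2 of 26 did, or 29.3% (19.7 to 40.4), 27.3% (15.0 to 42.8) and 7.69% (0.946 to 25.1). The intervals of the 3 libraries overlap in both groups of cells. The stricter subset had 21 of 22 mitosis genes and 19 of 22 S phase genes lower in KO, with mitosis medians of -2.71 and -2.38. One KO cell with 62286 UMIs, 2 of them Siglech and 636 Mpo, held 9.90% of all KO UMIs and 20.0% of the mitosis UMIs. Another KO cell, with 35884 UMIs, 8 of them Siglech and 84 Id2, held more mitosis UMIs, 406 against 198, and was kept throughout. Without the cell of 62286 UMIs and without a KO cell described below, 20 of 23 mitosis genes and 17 of 22 S phase genes were lower.

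**Figure D2:**
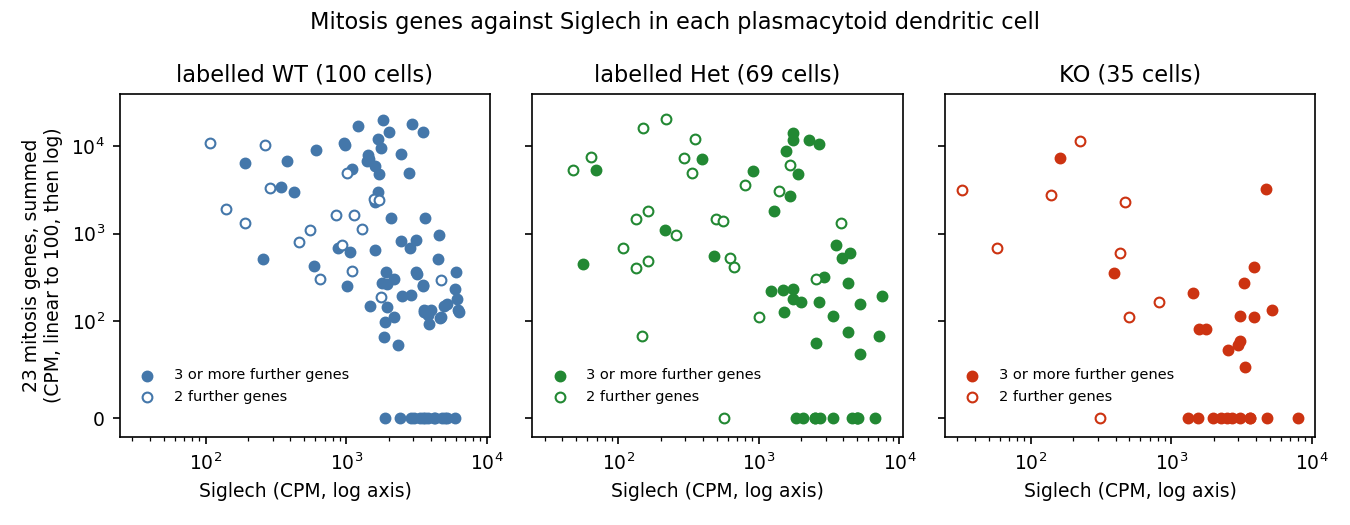
Summed CPM of the 23 mitosis genes (y axis, linear to 100 and logarithmic above) against Siglech CPM (x axis, logarithmic) for each plasmacytoid dendritic cell, 1 panel per library; filled points have 3 or more further genes and open points have 2. Open points lie towards low Siglech in each panel, and 2 of the 26 filled KO points come from cells with 20 or more mitosis UMIs.

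Genes of sterol synthesis were lower too. Their enzymes make cholesterol from acetyl-CoA under the factor SREBP2, and the list also holds genes regulated with them, such as Srebf2 and Insig1. The cells carried more of their transcripts than other leukocytes, with a sum over 20 genes of 3932, 2942 and 2062 CPM against 679, 630 and 508 CPM in other barcodes. In KO 9 of 20 were lower and 0 higher, with medians of -0.91 and -0.55, and the median of labelled Het over labelled WT was -0.42. Hmgcs1, which makes HMG-CoA, stood at 437 CPM (402 to 475), 296 CPM (269 to 325) and 118 CPM (92.3 to 148). Fdft1, squalene synthase, stood at 287, 124 and 66.7 CPM. Lss, lanosterol synthase, stood at 84.5, 43.0 and 14.3 CPM, and Sqle, squalene epoxidase, at 167, 143 and 69.9 CPM. Srebf2, which encodes SREBP2, stood at 559, 457 and 446 CPM and was not called. In other barcodes 10 of these genes reached 20 CPM and 0 were called, with medians of -0.49 and -0.29.

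The sum per cell had medians of 3126, 2076 and 1768 CPM over all chosen cells and 3829, 3787 and 2091 CPM in the stricter subset, where 11 of 20 genes were lower in KO. Cells with 3 or more further genes had medians of 3743, 3537 and 2091 CPM. The ranges over cells overlapped between libraries in each case. SREBP factors bind the element TCACNCCAC, which 1.05% of all promoters of the same length held on either strand. Of the 14 genes of the list with an entry in the table, 1 held it, Hmgcs1, whose window is printed with it in capitals, 137 bases before the RefSeq start.
Hmgcs1, plus strand, chr13:119690101-119690350: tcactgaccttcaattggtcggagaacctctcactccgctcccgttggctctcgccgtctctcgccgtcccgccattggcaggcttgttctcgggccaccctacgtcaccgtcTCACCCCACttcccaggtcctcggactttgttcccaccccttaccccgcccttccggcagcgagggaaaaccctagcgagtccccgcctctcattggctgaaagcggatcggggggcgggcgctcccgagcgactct

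Transcripts of the mitochondrial genome were higher in the KO cells. Of its 13 protein-coding genes 11 were higher and 0 lower, with medians of 1.84 to labelled WT and 1.49 to labelled Het. mt-Atp6, an ATP synthase subunit, stood at 185, 214 and 1050 CPM. mt-Co2 and mt-Co3, subunits of cytochrome c oxidase, stood at 283, 483 and 1358 CPM and at 138, 216 and 677 CPM. mt-Nd1, a complex I subunit, stood at 56.1, 132 and 608 CPM, so that the library labelled Het was also 2.35-fold above that labelled WT. mt-Nd5 and mt-Nd6 were not called. Other barcodes differed the same way by less, with 7 of 13 higher, medians of 1.11 and 0.72, and sums of 1419, 1814 and 3099 CPM, where the plasmacytoid dendritic cells had 1721, 2127 and 6363 CPM. Per cell the sum had medians of 1288, 1586 and 4126 CPM, and the lowest KO cell held 2116 CPM. With each cell weighted equally (the mean of per-cell CPM) the medians over the 13 genes were 3.11 and 2.77.

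In a KO cell of 2573 UMIs the mitochondrial genes made up 27.9% of UMIs, and this cell alone gave 18.0% of the KO mitochondrial UMIs. Without it and the deepest KO cell 10 of 13 genes were higher, with a sum of 5048 CPM. The part of cell damage in these values was not tested.

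**Figure D3:**
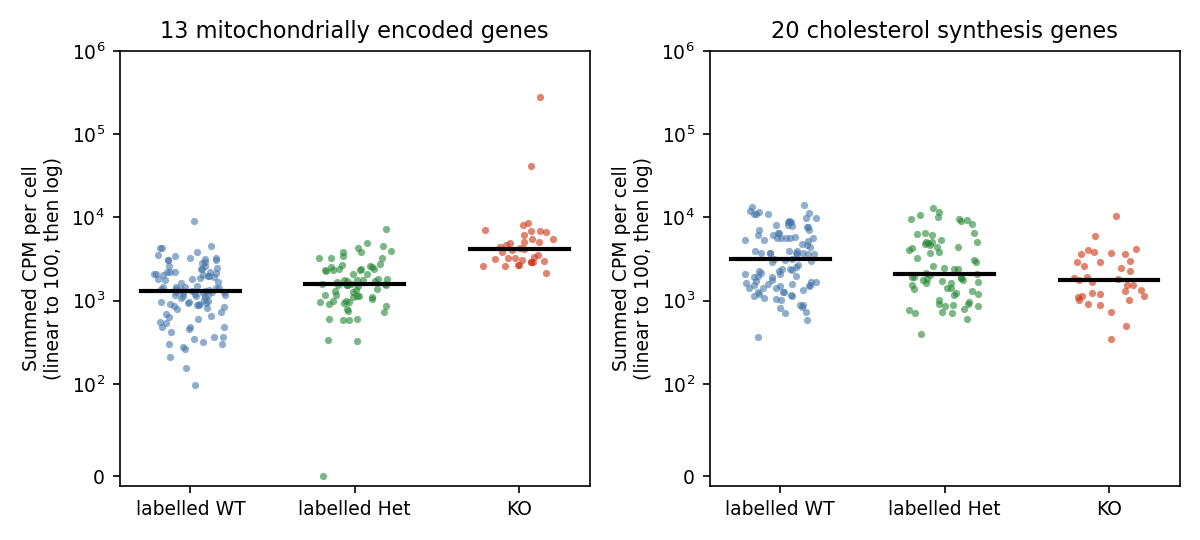
Summed CPM per cell of the 13 mitochondrially encoded genes (left) and the 20 sterol synthesis genes (right) in each library; points are cells, bars are medians and the y axes are linear to 100 and logarithmic above. The KO median of the mitochondrial sum is 4126 CPM against 1288 and 1586, while the sterol sums overlap with medians of 3126, 2076 and 1768.

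Among surface proteins and receptors outside the rule, 5 of 19 marker genes were higher in KO (26.3%) and 2 lower (10.5%), against 7.60% and 8.05% of all genes. Cd7 (chromosome 11, 121036747 to 121039418, minus strand) stood at 568 CPM (528 to 611), 518 CPM (482 to 556) and 1392 CPM (1301 to 1487), with ratios of 2.45 (2.22 to 2.70) to labelled WT and 2.69 (2.44 to 2.97) to labelled Het. It was nearly confined to these cells, with 2.20, 4.70 and 6.44 CPM elsewhere. Lifr, the leukemia inhibitory factor receptor, stood at 263, 368 and 656 CPM. Lag3, an inhibitory receptor, stood at 19.2, 16.1 and 36.5 CPM, and Ptprc, which encodes the sorted protein CD45 itself, at 375, 382 and 577 CPM. Lower were Havcr1, a phosphatidylserine receptor, at 89.9, 82.0 and 23.8 CPM, and Fcrla, an Fc receptor-like protein also found in B cells, at 90.6, 59.2 and 7.94 CPM.

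Chemokine receptors went both ways. Cxcr4, the receptor that holds cells in blood-forming tissue, was higher, at 371, 706 and 1188 CPM, with the library labelled Het itself 1.90 times that labelled WT. Cxcr3, a receptor for interferon-induced chemokines, was lower, at 233, 95.5 and 60.4 CPM, with most of the gap between the libraries labelled WT and Het. In all, 2 of 14 genes of chemokine receptors and adhesion were higher and 2 lower (14.3% each, against 7.60% and 8.05% of all genes). Of 16 cytokine receptor genes 2 were higher and 2 lower (12.5% each, against 7.60% and 8.05% of all genes). Higher were the interferon receptor gene Ifnar1 (198, 207 and 354 CPM) and Csf1r (210, 311 and 481 CPM). Lower were Il2rg (49.9, 43.7 and 17.5 CPM) and Csf3r (56.8, 48.4 and 25.4 CPM). Csf1r, also on the list for monocytes and macrophages, was uneven over cells. Its medians per cell were 0, 135 and 70.5 CPM, highest in labelled Het, and 2, 4 and 8 cells held at least 20 UMIs of it. Flt3, the receptor for the growth factor that sustains dendritic cells, stood at 191, 268 and 316 CPM and was not called.

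**Figure D4:**
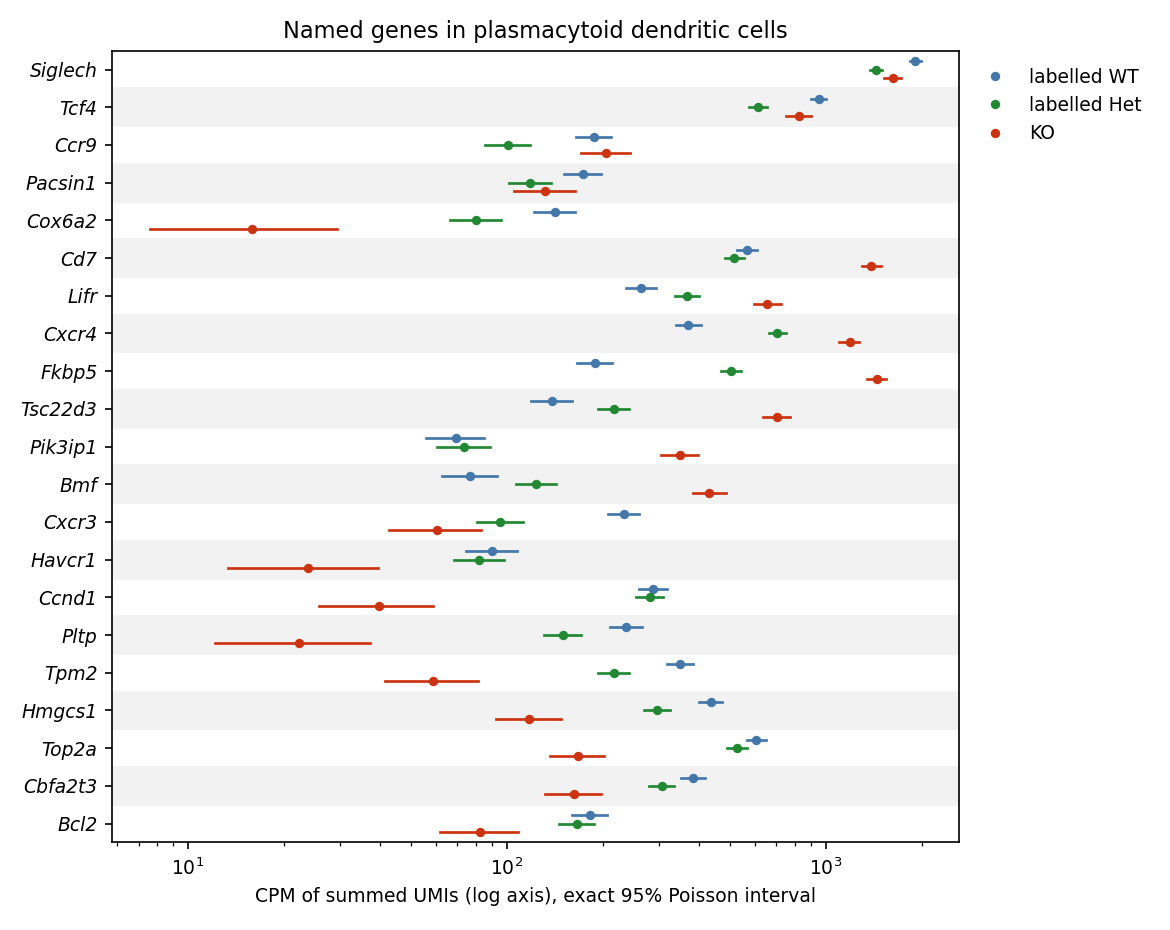
Levels of 21 named genes in the plasmacytoid dendritic cells of each library (CPM of summed UMIs, logarithmic axis; lines are exact 95% Poisson intervals). Siglech to Pacsin1 have KO between or near the other libraries, Cd7 to Bmf have KO highest, and Cox6a2 and Cxcr3 to Bcl2 have KO lowest.

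Of 15 transcription factors of the lineage 0 were higher and 2 lower, shares not far from those over all genes. Cbfa2t3, a corepressor that works with E proteins, stood at 384, 306 and 162 CPM. Irf7, the factor that switches on interferon genes, stood at 72.2, 43.0 and 22.2 CPM from 94, 64 and 14 UMIs, was not called in the stricter subset and turned around when cells were thinned. Bcl11a stood at 456, 571 and 531 CPM and Zeb2, a repressor of Id2, at 402, 309 and 348 CPM. Spib was lowest in KO without a call. Id2 stood at 203, 1094 and 515 CPM, highest in the library labelled Het, where 14 cells held 20 or more UMIs against 3 and 5.

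Of 19 genes of nucleic acid sensing 2 were higher and 2 lower, again near the shares over all genes. Tlr7, the receptor for single-stranded RNA, stood at 67.6, 62.5 and 95.3 CPM and Tlr9, the receptor for unmethylated DNA, at 99.1, 70.6 and 49.2 CPM, both without a call. Unc93b1, which carries both receptors to endosomes, stood at 816, 719 and 1188 CPM, and it missed the fold against labelled WT. The kinase gene Irak4 (36.1, 41.7 and 65.1 CPM) and the ubiquitin ligase gene Traf6 (59.1, 55.1 and 95.3 CPM) were higher, and Irf7 and the inhibitory receptor gene Cd300lf (220, 173 and 84.2 CPM) were lower. The 16 type I and III interferon genes in the table gave 0 UMIs in every chosen cell, which allows up to 2.30, 2.02 and 4.77 CPM for each gene (3 UMIs of each group's total). Of 9 interferon-stimulated genes measured, Parp14 was higher (17.7, 16.1 and 36.5 CPM) and Ifi27l2a lower (203, 284 and 62.0 CPM). Each is 11.1% of the list, near the shares over all genes.

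Antigen presentation genes gave 2 higher and 2 lower of 17 (11.8% each), not far from the 7.60% and 8.05% of all genes. Cd74, the invariant chain of MHC class II, stood at 247, 450 and 69.9 CPM, but 1 cell of each library held 20.5%, 20.0% and 25% of its UMIs. H2-Ab1, a class II chain, stood at 32.3, 84.7 and 14.3 CPM, and H2-DMa, which loads peptides, was higher at 201, 170 and 307 CPM. Cd86, a costimulatory ligand, was higher at 13.8, 15.5 and 38.1 CPM. In the secretory and unfolded protein list 2 of 20 were higher (10%, near the 7.60% of all genes) and 0 lower. They were Herpud1, of protein disposal at the endoplasmic reticulum, at 273, 282 and 720 CPM, and Ssr4, a translocon part, at 187, 292 and 448 CPM. The stricter subset had 6 of 20 lower, among them Pdia4 and Calr, and Herpud1 remained higher at 320, 406 and 1159 CPM.

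Peroxisome genes other than Pex2 were called about as often as genes at large. Of 12 biogenesis genes Pex3, an early membrane assembly factor, was higher (19.2, 24.9 and 42.9 CPM) and Pex2 lower, with list medians of 0.06 and 0.03. Pex3 was not called without the KO cells of 62286 and 2573 UMIs. Of 19 genes for peroxisomal enzymes and transporters, Acox3, an acyl-CoA oxidase (87.6, 94.8 and 168 CPM), and Idh1, an isocitrate dehydrogenase found in cytosol and peroxisomes (29.2, 39.7 and 63.5 CPM), were higher. Tysnd1, the peroxisomal processing protease (73.0, 64.5 and 36.5 CPM), and Prdx5, a peroxiredoxin (715, 447 and 197 CPM), were lower, and Prdx5 was far more abundant in other barcodes, at 2330, 1672 and 1294 CPM. Cat, catalase, stood at 282, 237 and 307 CPM and was not called.

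The 10 genes with the largest calls upward were 4 mitochondrial genes (mt-Atp6, mt-Nd1, mt-Co1 and mt-Co3) and 6 nuclear ones. Pik3ip1, an inhibitor of PI3 kinase, stood at 69.1, 73.3 and 350 CPM and was found in 45, 47 and 35 cells, which was every KO cell. Tsc22d3, the glucocorticoid-induced leucine zipper, stood at 138, 216 and 702 CPM, and Bmf, a BH3-only cell death activator, at 76.8, 124 and 432 CPM. Cd244a, a receptor of the SLAM family, stood at 122, 79.3 and 402 CPM, Klhl42, a ubiquitin ligase adaptor, at 67.6, 47.7 and 261 CPM, and Ank, a pyrophosphate and ATP exporter, at 29.2, 85.4 and 350 CPM. Fkbp5, a chaperone partner induced by glucocorticoids and among the 10 largest in the stricter subset, stood at 189, 504 and 1444 CPM. In other barcodes Tsc22d3 had 106, 151 and 196 CPM, Fkbp5 101, 189 and 256 CPM, Pik3ip1 17.0, 22.1 and 51.1 CPM and Bmf 47.9, 41.8 and 43.1 CPM. The first 3 thus followed the same order in other barcodes with smaller gaps, and Bmf did not.

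Further genes led the stricter subset. Klk1b22, a kallikrein of a family of near-identical copies whose probes may be shared, gave 0, 15 and 133 UMIs over all chosen cells and was found in 0, 5 and 23 cells. Other barcodes had 0, 1.75 and 16.3 CPM of it, in the same order. Glis3, a zinc finger factor, stood at 15.4, 24.9 and 146 CPM and Notch3, a Notch receptor, at 40.7, 25.5 and 129 CPM over all chosen cells. Hes1, a Notch target, stood at 61.5, 37.6 and 130 CPM, but 1 KO cell held 57.3% of its KO UMIs.

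The 10 largest calls downward were Ccnd1 and 9 neutrophil genes: Camp, Ltf, Ngp, Pglyrp1, Stfa3, S100a8, Cstdc6, Olfm4 and Stfa2. S100a8, a calcium-binding protein, stood at 9361, 7034 and 744 CPM, where other barcodes had 70801, 62456 and 78287 CPM. The neutrophil list as a whole took 3.09%, 2.25% and 0.404% of the UMIs of the chosen cells. In the stricter subset, where it took 0.574%, 0.426% and 0.354%, S100a8 stood at 683, 806 and 992 CPM and 8 of the 9 genes were not called, with Camp still lower. That subset was itself chosen on this list, and only the libraries labelled WT and Het had cells above its limit of 2%. The smaller gaps there follow in part from the choice. Of 8 B lineage markers measured 7 were lower too, and 4 of 8 in the stricter subset. Pax5, the factor that holds cells in the B lineage, gave 92, 42 and 0 UMIs, and in other barcodes it was also lowest in KO, at 127, 71.1 and 31.1 CPM. The part of free RNA or of joined cells in these values was not tested. Of lists for other cells, 0 of 5 conventional dendritic genes measured were called (1 higher in the stricter subset), and erythroid genes summed to 26.1, 4.03 and 4.77 CPM.

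Genes that record a lymphoid history, such as rearranged or B lineage genes that plasmacytoid dendritic cells can carry, had 4 of 13 lower in KO and 0 higher. Pou2af1, a coactivator of immunoglobulin genes, stood at 65.3, 55.8 and 1.59 CPM, and Cd79a, a part of the B cell receptor, at 106, 63.9 and 6.35 CPM. Ighm, the IgM heavy chain, stayed abundant at 3997, 2888 and 3025 CPM and was not called. Other barcodes had 11 of the 13 lower. B lineage barcodes were also fewest in KO, at 1932 of 9600, 1332 of 8000 and 904 of 8245. Lower levels per cell and fewer B lineage cells cannot be told apart in values pooled over other barcodes. Of 12 genes of glycolysis 2 were lower (16.7%, against 8.05% of all genes). They were Ldha, lactate dehydrogenase, at 585, 791 and 351 CPM and Hk2, a hexokinase, at 59.9, 83.4 and 33.4 CPM.

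Among markers of other myeloid and progenitor cells, F13a1, found in monocytes, was higher at 46.9, 147 and 276 CPM, and Lyz2, the lysozyme of myeloid cells, was lower at 970, 607 and 141 CPM. Axl, a receptor used to mark transitional dendritic cells, stood at 4.61, 21.5 and 49.2 CPM, and Meis1, a stem cell factor, at 34.6, 29.6 and 63.5 CPM. Of these 4 calls only that of Lyz2 was also made in the stricter subset.

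Some called genes were named after their values were seen, for standing at least 5-fold above other barcodes in the libraries labelled WT and Het, a choice that itself favours genes lower in KO. They are Pltp, the phospholipid transfer protein, Sema4c, a semaphorin, and Shisa8, a membrane adaptor, and with them goes Tpm2, a tropomyosin. Pltp stood at 237 CPM (211 to 265), 150 CPM (131 to 171) and 22.2 CPM (12.2 to 37.3). Tpm2 stood at 349, 216 and 58.8 CPM, against 2.70, 2.29 and 0.899 CPM in other barcodes. Sema4c stood at 163, 130 and 35.0 CPM and Shisa8 at 169, 113 and 30.2 CPM. Bcl2, the cell survival gene, stood at 182, 165 and 82.6 CPM, and Bcl2l1 with it at 63.0, 67.2 and 31.8 CPM, while Bbc3, which encodes the cell death activator PUMA, was higher at 33.0, 27.6 and 60.4 CPM. The stricter subset gave the same calls for these 3. Of the list genes named above as called, Lag3, Csf3r, Irf7, Irak4, Cd300lf, Parp14, H2-Ab1, H2-DMa, Ssr4, Pex3 and Idh1 were not called in it.

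List counts in the stricter subset, where 7.38% of all genes were higher and 8.87% lower, differed as follows. Surface markers outside the rule had 5 of 20 higher and 3 lower, and lineage transcription factors 1 of 16 higher and 1 lower. Sensing genes had 1 of 20 higher and 1 lower, interferon-stimulated genes 0 of 7 higher and 1 lower, and chemokine receptors and adhesion genes 3 of 14 higher and 2 lower. Antigen presentation genes had 1 of 17 higher and 1 lower, lymphoid history genes 3 of 13 lower, and mitochondrial genes 10 of 13 higher. Peroxisome biogenesis genes had 0 of 10 higher and 1 lower, and peroxisomal enzyme genes 1 of 21 higher and 2 lower.

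**Figure D5:**
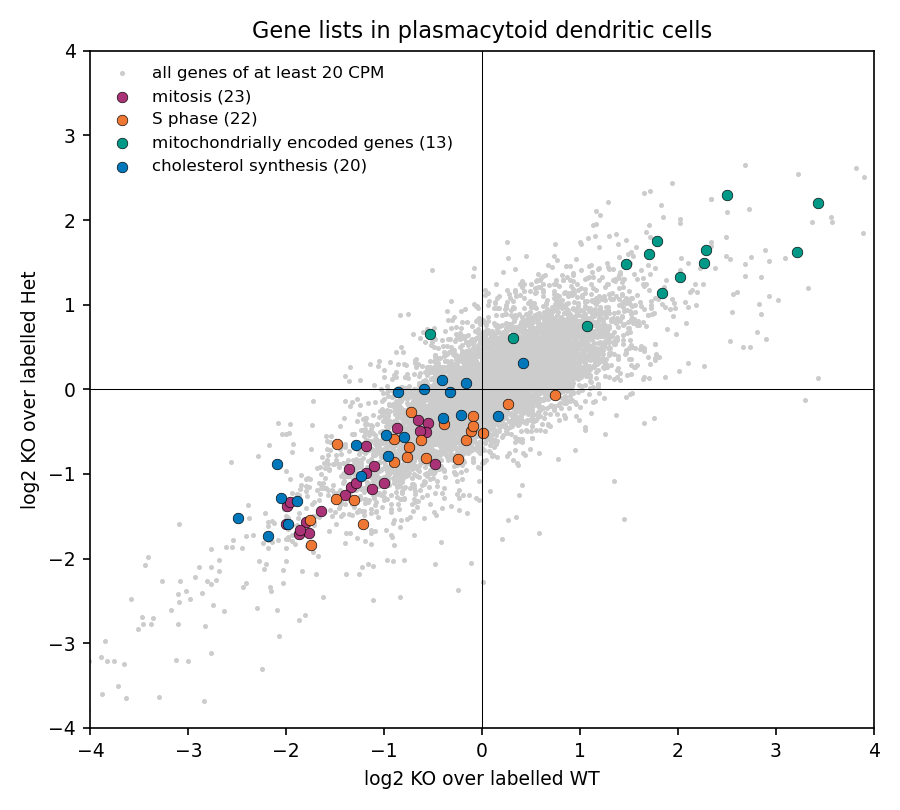
Log2 ratio of KO over labelled WT (x axis) and over labelled Het (y axis) for each gene of at least 20 CPM in the plasmacytoid dendritic cells, with 4 gene lists in colour; 39 genes lie outside the axes. Mitosis genes lie in the lower left with medians of -1.29 and -1.11, and mitochondrial genes in the upper right with medians of 1.84 and 1.49. KO is part of both axes, so points lie along the diagonal by construction.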

How the data were processed

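Single-cell RNA from fixed cells was read with gene-specific probes. Per the submitters' processing notes, the authors made the deposited UMI counts with Cell Ranger 7.0.0 on mm10. The deposited matrices hold whole-number counts of 19059 genes. The rule was applied to every barcode, and UMIs were summed over the chosen cells, giving totals of 1301781, 1487416 and 629451 UMIs. Sums were expressed as CPM with exact Poisson intervals, ratios with exact conditional binomial intervals and shares with Clopper-Pearson intervals, all at 95%. Log2 ratios had 0.5 counts added. There was no test. The genes of the rule, the cells and the gene lists were chosen with earlier results of these data known. Genes named are the 10 largest calls in each direction, ranked by the smaller log2 ratio, list members that were called or abundant, and the 12 most concentrated in the cells. Names from the stricter subset were added after the data were seen. Doublets were called with Scrublet in scanpy 1.11.5. Alternative scalings used TMM factors from edgeR 4.0.16 and size factors from DESeq2 1.42.0. The fold rule was checked on simulated counts. Gene positions came from GENCODE M21 on GRCm38 and promoters from RefSeq on GRCm38.p6. Some genes that met these rules are not reported here. Near-identical gene copies may share probes.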

Additional observations from a re-analysis of the deposited data

How the results depend on the processing

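No paired analysis was possible because there was 1 library per genotype, and for the same reason no library could be left out and intervals cover counting error only. The KO share of plasmacytoid dendritic cells stayed below both other libraries under the 12 other choices tried, at 0.309 to 0.463 times labelled WT and 0.492 to 0.624 times labelled Het. The interval of KO over labelled Het included 1 in the stricter subset (0.361 to 1.03) and in that subset without doublets (0.366 to 1.04). It also did with 3 further genes after thinning to 5000 UMIs (0.293 to 1.07). Leaving Cox6a2 out of the rule changed no count. Labelled Het over labelled WT moved from 0.828 to 0.592 with barcodes thinned to 3000 UMIs and 1 UMI per gene, and to 0.545 with 3 further genes and thinning to 5000 UMIs, a choice added after the data were seen. Genes called higher in KO numbered 730 with no filter, 31 at 300 CPM and 36 at 2-fold, and genes called lower 730, 57 and 82. Thinning the cells to 3000 UMIs left 143 genes lower, 101 of them among the original 224. Log2 ratios of KO to labelled WT (rule genes) or to the nearer library (others) moved by more than their intervals for up to 31 of the 72 named genes (thinning), for 23 with the mean of per-cell CPM and for 20 in the stricter subset, and changed sign as follows. In the stricter subset Siglech (0.15) and Tcf4 (0.080) lay above labelled WT, as with 3 further genes (0.23 and 0.18, and Pacsin1 0.061), and thinning turned Pacsin1 (0.22) and Irf7 (0.26). Neutrophil genes turned in the stricter subset (Stfa3 0.25, S100a8 0.54, Cstdc6 0.72, Stfa2 0.71) and without cells above 2% neutrophil transcripts (0.30, 0.17, 0.21 and 0.35). Both settings chose cells by neutrophil transcripts, so these turns follow in part from the choice. Without the KO cells of 62286 and 2573 UMIs, sensing genes gave 4 higher and 1 lower, secretory genes 1 and 2, peroxisomal enzyme genes 1 and 1, and sterol genes 0 and 8. TMM and median-of-ratios scaling moved 1 of the 72 genes each and reversed 0.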
